A study of Mus musculus with 2 samples.

Results

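The genes described here are 9 genes of retinoid metabolism and retinoid reception: the receptor genes Rara, Rarb, Rxra, Rxrb and Rxrg, the retinaldehyde dehydrogenase genes Aldh1a1 and Aldh1a2, and the carrier genes Rbp4 and Crabp1. They were chosen by name, with earlier results of these data known. A probe was taken for a member when its RefSeq accession mapped to the member's symbol. All 9 were found, with 11 probes, among the 16535 gene symbols on the array. The tissue was the hippocampus of C57BL/6J mice, all male, 11 weeks old and housed singly. The mice of the ASX group ate, for 4 weeks after 1 week of acclimatization, powdered chow that contained ASX powder at 0.5% (w/w). The powder held astaxanthin, a red carotenoid from the alga Haematococcus pluvialis, at 2%. The control mice ate the same chow with placebo powder (0% ASX powder). Total RNA of both diets was hybridised together on 2 two-colour Agilent arrays, with ASX in the red dye Cy5 on array 1 and in the green dye Cy3 on array 2. Each array is titled with 4 mice, no label says how their RNA was combined, and the arrays were treated as a technical dye swap, that is as 1 replicate.

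Vitamin A travels in blood bound to the carrier RBP4, is oxidised in cells to retinaldehyde and then, by the retinaldehyde dehydrogenases, to retinoic acid. Retinoic acid binds nuclear receptors of the RAR type, which sit on DNA as pairs with an RXR receptor and switch genes on when the ligand arrives. The cytosolic protein CRABP1 holds retinoic acid, and CYP26 enzymes degrade it. In the brain, retinoic acid made in the meninges and in neurons takes part in neuronal differentiation and synaptic scaling, and RARβ and RXRγ are known for their high expression in the striatum.

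Retinoic acid receptors recognise direct repeats of a hexamer in DNA, and the spacing of 5 bases is the classic element for RAR with RXR. The RefSeq promoter windows of build GRCm38.p6, from 250 bases before to 50 bases after a start site, were searched on both strands for direct repeats of the hexamer AGGTCA and of its relatives. These relatives are GGGTCA, then the form AGTTCA, and then the form GGTTCA, and any pair of the 4 hexamers counted. All 9 members had at least 1 window. Among them only Rarb, itself a textbook retinoic acid target, held the repeat with a spacer of 5, from base -53 to base -37 before the start site. Of the other pathway genes and retinoic acid targets listed for comparison, Cyp26a1, which encodes a retinoic acid hydroxylase, held it too, on the opposite strand from base -32 to base -16. The repeat occurred in 32 of 32851 windows (0.0974%). Repeats with a spacer of 1 or 2, found in 0.222% and 0.268% of windows, were in no member window. The 250 bases before the start site of both genes are shown because they hold the repeat; a match is a description of these letters and not a measured binding site. They are written 5′ to 3′ on the gene's strand with the repeat in capitals, for Rarb at chr14:16575477-16575726 (minus strand) and for Cyp26a1 at chr19:37697558-37697807 (plus strand).
Rarb: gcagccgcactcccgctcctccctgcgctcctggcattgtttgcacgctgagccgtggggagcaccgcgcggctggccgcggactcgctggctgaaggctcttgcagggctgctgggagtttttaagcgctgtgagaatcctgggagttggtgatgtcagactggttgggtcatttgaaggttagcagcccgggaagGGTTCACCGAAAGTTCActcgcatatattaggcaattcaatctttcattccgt
Cyp26a1: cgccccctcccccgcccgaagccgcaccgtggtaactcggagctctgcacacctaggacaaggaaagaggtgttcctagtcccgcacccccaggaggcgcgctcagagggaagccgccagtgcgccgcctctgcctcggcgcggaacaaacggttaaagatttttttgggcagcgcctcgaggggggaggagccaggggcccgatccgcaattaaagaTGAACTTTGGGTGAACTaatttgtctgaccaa

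A gene counted as measured when the scanner software put a probe of it well above background in every one of the 4 readings (both RNAs, each array). Its value is that of the brightest such probe. This held for 8 of the 9 members and for 13314 genes with a symbol. The share of mouse transcript spots that stood clear of background was 77.8% and 76.7% in ASX RNA (arrays 1 and 2), and 78.2% and 75.8% in control RNA. All 15 of the hippocampal neuron markers on the array, out of 16 listed, were measured. With 1 replicate there is no test of the diet. To be called, a gene had to differ by 1.5-fold or more on each array with the same diet higher on both. An SD given below is that of the 2 arrays and thus technical.

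The mean ratio of the arrays was within 1.2-fold for each of the 8 measured members, as for 98.6% of genes with a symbol. Of the 8 measured members, 0 were called higher in ASX RNA and 0 were called lower, where 0.0300% of genes with a symbol were called in each direction. At 1.2-fold the member counts were also 0 and 0, beside 0.233% of genes higher and 0.330% lower. The member furthest below 0 was Rxrg, at 83.4% of its control level, and the member furthest above was Aldh1a2, at 119%. The mean log2 ratio of the arrays was below 0 in 5 of the 8, as in 59.5% of genes with a symbol. Rarb, Rxra, Rxrb and Rxrg were below 0 on both arrays, as 26.3% of genes were, and Aldh1a2 was above 0 on both, as 14.3% were. The other 3 had opposite signs on the arrays, as 59.3% of genes did. The median of the 8 mean log2 ratios was -0.10 (-0.09 on array 1 and -0.07 on array 2), against -0.02 over all genes with a symbol.

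**Figure D1:**
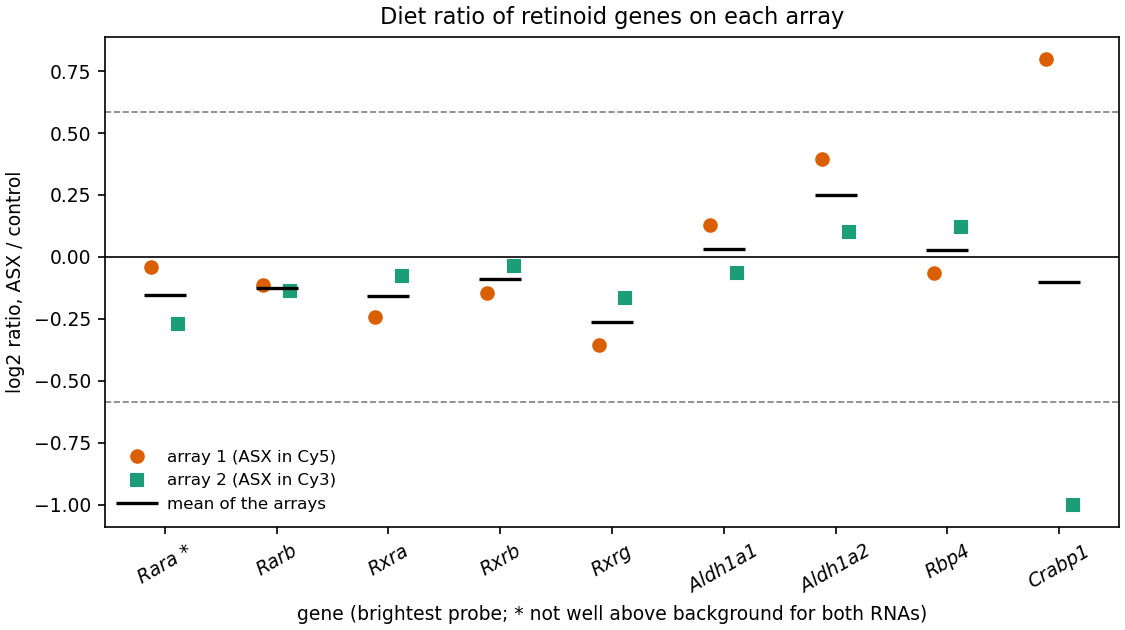
Log2 ratio of ASX over control RNA for the brightest probe of each of the 9 genes (x axis) on array 1 (circles) and array 2 (squares), with their mean (bars). Dashed lines mark 1.5-fold. The 4 measured receptor genes lie below 0 on both arrays, Aldh1a2 lies above 0 on both, and the points of Crabp1 lie far apart on opposite sides.

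RXR receptors are the shared partners of RAR and of several other nuclear receptors, and RXRγ is the form enriched in brain and muscle. Rxrg had normalized intensities (arbitrary units) of 1792 on array 1 and 2007 on array 2 in ASX RNA, against 2293 and 2254 in control RNA. Both ASX values lay below both control values, as they did for 16% of genes with a symbol. Its log2 ratio was -0.36 on array 1 and -0.17 on array 2, a mean of -0.26 ± 0.13 (SD of the 2 arrays), and 0.871% of genes with a symbol had a lower mean. Rxra, the gene of the widely expressed RXRα, had 3736 and 4223 in ASX RNA, against 4420 and 4452 in control RNA. The intensities did not overlap, and the log2 ratio was -0.24 on array 1 and -0.08 on array 2, with a mean of -0.16 ± 0.12. Rxrb, which encodes RXRβ, had 4866 and 4837 in ASX RNA, against 5377 and 4964 in control RNA. These did not overlap either, and the mean log2 ratio was -0.09 ± 0.08.

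Rxra and Rxrb had another probe each that was well above background for both RNAs. The second Rxra probe was dim, with a mean log2 brightness of 6.70 against 12.03 for the first, and had ratios of -0.06 and -0.07 on the arrays. The second Rxrb probe had a log2 brightness of 9.59 against 12.29, and ratios of -0.08 on array 1 and -0.002 on array 2. Both second probes had the sign of the first with a smaller size. The second Rxra probe had 103.5 and 99.81 in ASX RNA, against 108.2 and 105.0 in control RNA, with no overlap. The scanner's own log2 ratios for it were 0.02 on array 1 and -0.21 on array 2. The second Rxrb probe did overlap, with 797.4 and 728.3 in ASX RNA, against 844.5 and 729.3 in control RNA.

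RARβ is a retinoic acid receptor whose own gene is known to be induced by retinoic acid through the repeat shown above. Rarb was read by 10 spots of 1 probe, the only member with repeated spots. Its intensities were 642 and 628 in ASX RNA, against 694 and 690 in control RNA, with no overlap. Both ASX values lay below both control values, as they did for 16% of genes with a symbol. The mean log2 ratio was -0.12 ± 0.02, or 91.7% of the control level. On array 1 the 10 spots ran from -0.17 to -0.04 and on array 2 from -0.22 to -0.04, so all 10 were below 0 on each array. The spots of an array share its RNA samples and measure the precision of the reading, not the spread between mice. The SD over spots was 0.05 on array 1 and 0.06 on array 2. Rara, the gene of the broadly expressed RARα, was near the limit of detection. Its probe was well above background in ASX RNA on array 1 only and in control RNA on both arrays, with intensities of 77.7 and 77.9 in ASX RNA, against 79.8 and 94.1 in control RNA. It was not counted among the measured members, and its ratios of -0.04 and -0.27 rest on signals close to background.

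**Figure D2:**
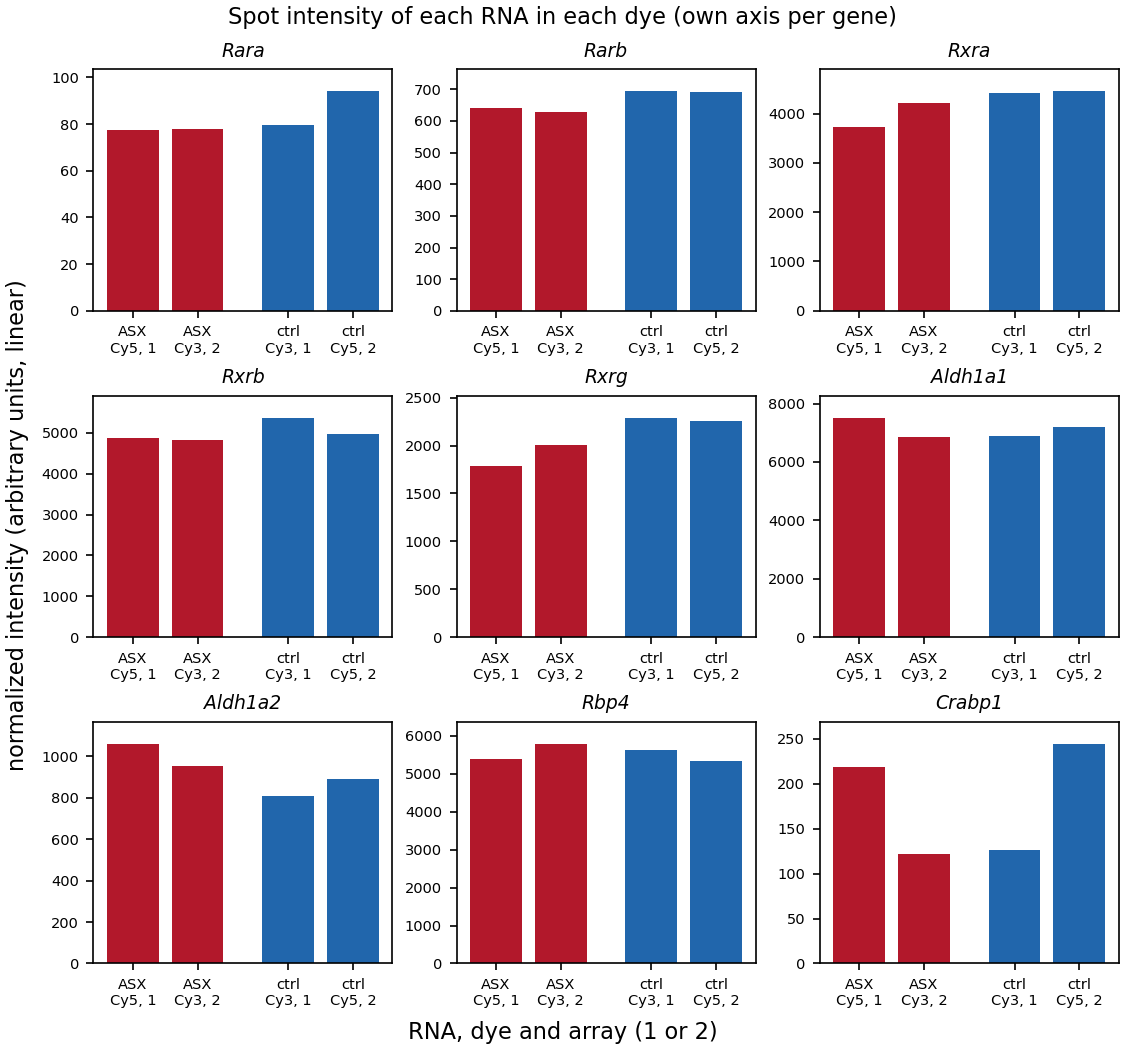
Normalized intensity (arbitrary units, linear axis starting at 0, a separate scale for each gene) of ASX RNA (red bars) and control RNA (blue bars) in each dye and array. In Rarb, Rxra, Rxrb and Rxrg both ASX bars are lower than both control bars, as for 16% of genes with a symbol. In Aldh1a2 both ASX bars are higher, as for 8.19% of genes. In Crabp1 the tall bars are those in Cy5, with ASX at 219 and control at 244.

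Of the genes of the enzymes that make retinoic acid, neither was called. Aldh1a2 encodes RALDH2, the retinaldehyde dehydrogenase of the meninges. Its intensities were 1060 and 954 in ASX RNA, against 806 and 890 in control RNA. Both ASX values lay above both control values, as they did for 8.19% of genes with a symbol. The ratio was 0.40 on array 1 and 0.10 on array 2, a mean of 0.25 ± 0.21, and 99.3% of genes with a symbol had a lower mean. Aldh1a1 encodes RALDH1, known in midbrain dopamine neurons. It had 7523 and 6867 in ASX RNA, against 6884 and 7190 in control RNA. The intensities overlapped, the ratios were 0.13 and -0.07, and the mean of 0.03 ± 0.14 was smaller than its SD.

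The carriers did not differ in a common direction either. Rbp4, the gene of the plasma retinol carrier, had 5389 and 5791 in ASX RNA, against 5641 and 5327 in control RNA. The values overlapped, and the mean log2 ratio was 0.03 ± 0.13. Crabp1 followed the dye and not the diet. It had 219 in ASX RNA on array 1, where ASX carried Cy5, and 122 on array 2, where ASX carried Cy3, against 126 and 244 in control RNA. The gene was thus 1.74-fold higher in ASX on array 1 and 2.00-fold lower on array 2, and its mean of -0.10 ± 1.27 was far smaller than its SD. The part of the log2 ratio that follows the dye was 0.90, or 1.86-fold brighter in Cy5, and was larger than that of 99.9% of genes with a symbol. Either array alone would have called Crabp1, as higher by array 1 (0.80) and as lower by array 2 (-1.0).

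Crabp1 was among 18 genes with a symbol (0.135%) that were at least 1.5-fold brighter in Cy5 on each array, and 0 were brighter in Cy3. It ranked 8th of the 18 by the size of the dye part. The mean log2 brightness of Crabp1 was 7.40, and only 3 of the 18, Crabp1 included, were dimmer than 8, while the median of the other 17 was 17.01. The scanner's own log2 ratios for Crabp1 were further apart, at 1.35 on array 1 and -1.92 on array 2, and with an offset of 16 in place of 50 in the background correction they were 0.98 and -1.30. The software's standard error of a log2 ratio was 0.25 and 0.28 for Crabp1 on the arrays, and 0.20 to 0.21 for the other 7 measured members. In 0 of the 8 did the scanner's ratio exceed this error in the same diet direction on both arrays, beside 0.841% of genes higher and 1.89% lower.

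**Figure D3:**
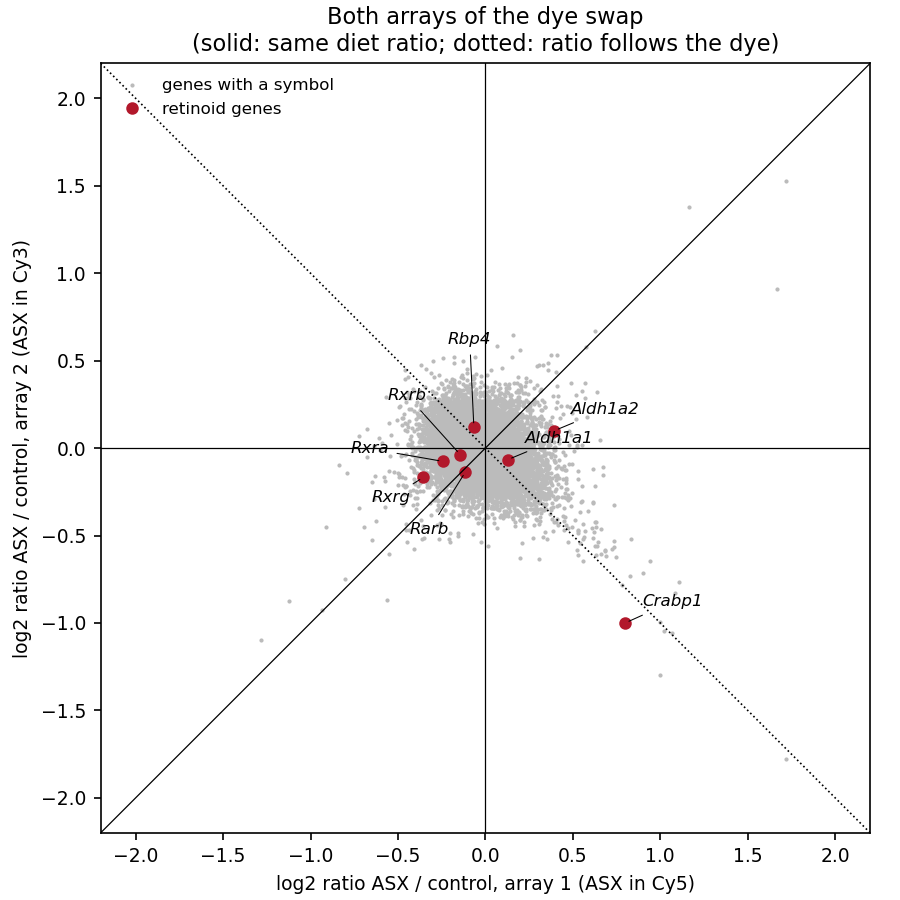
Log2 ratio of ASX over control on array 1 (x axis) and array 2 (y axis) for 13314 genes with a symbol (grey) and the 8 measured retinoid genes (red). A diet difference lies along the solid diagonal and a dye difference along the dotted one, where Crabp1 sits at 0.80 and -1.0, and the other 7 lie nearer to 0.

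The other genes of retinoid supply, storage, transport and breakdown gave the same picture of small differences. Of 34 listed, 31 were on the array and 25 were measured. Of the 25, 0 were called in either direction, 3 were above 0 on both arrays, 6 were below and 16 had opposite signs, with a median of -0.05 (0.01 on array 1 and -0.04 on array 2). For this list and those that follow, 0.0300% of all genes with a symbol were called in each direction. Of all genes, 14.3% were above 0 on both arrays, 26.3% below, and 59.3% had opposite signs. Among the 25, the 4 genes whose mean ratio was furthest from 0 were all below it. Cyp26a1 had intensities of 141 and 139 in ASX RNA, against 183 and 159 in control RNA, and a mean log2 ratio of -0.29 ± 0.13. Rbp7, a cellular retinol carrier gene, had 106 and 104 in ASX RNA, against 120 and 121 in control RNA, and a mean of -0.19 ± 0.03. Aldh1a7, a close relative of Aldh1a1, had a mean of -0.13 ± 0.02. Aldh1a3, which encodes a further retinaldehyde dehydrogenase, had -0.54 on array 1 and 0.07 on array 2. All 4 were dim, with mean log2 brightness from 6.80 to 7.28 against a median of 10.33 over genes with a symbol. Crabp2, the relative of Crabp1 that delivers retinoic acid to the nucleus, was not well above background in control RNA on 1 array and was not counted.

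Retinoic acid target genes had 13 measured members of 19, Rarb and Cyp26a1 among them. Of the 13, 0 were called in either direction, 3 were above 0 on both arrays and 6 below, and the median was -0.08 (-0.07 on array 1 and -0.14 on array 2). Besides Cyp26a1, the largest means were those of Meis2 (-0.18) and Meis1 (-0.17), homeobox genes, and of Rarres2 (-0.16), the gene of the secreted protein chemerin. Over all genes, the repeat with a spacer of 5 was found in windows of 31 symbols, of which 8 were on the array and 6 measured. Of these 6, 0 were called, 1 was above 0 on both arrays, and 2, Rarb and Cyp26a1, were below.

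Receptors that pair with RXR, such as the PPAR, LXR and thyroid hormone receptors, had 10 measured members of 13. Of the 10, 0 were called, 1 was above 0 on both arrays and 5 were below, with a median of -0.08 (-0.03 on array 1 and -0.09 on array 2). Nr4a2, an activity-induced orphan receptor gene, had the largest mean at -0.31, from -0.60 on array 1 and -0.01 on array 2. Nr1i3, Nr1h3 and Thrb had means of 0.11, -0.10 and 0.10, and Thrb had opposite signs on the arrays (0.29 and -0.10). All 13 genes of coactivators and corepressors of these receptors were measured. Of the 13, 0 were called, 5 were above 0 on both arrays and 2 below, and the median was -0.01. Tbl1xr1, a corepressor subunit gene, had the largest mean at 0.11, and Ncoa3 and Tbl1x had means of -0.08 and 0.07.

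**Figure D4:**
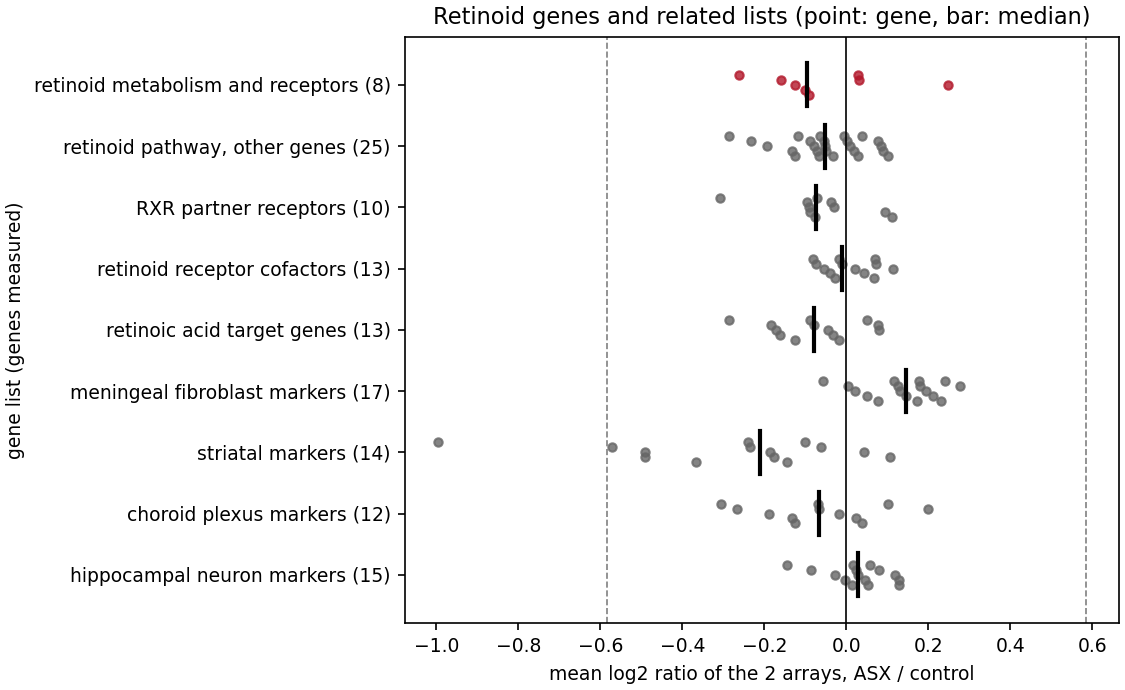
Mean log2 ratio of ASX over control (x axis) for the measured genes of each list (points, number measured in parentheses) with the list median (bar), and dashed lines at 1.5-fold. Retinoid, partner and target genes gather near 0, the meningeal median is 0.15 and the striatal median -0.21.

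Markers of neighbouring tissue in which retinoid genes are known to be active were read beside them. The marker lists were drawn up with earlier results of these data known, so their counts only describe the genes listed. In whole tissue, fewer cells of a type and less RNA per cell cannot be told apart. Of the striatal markers, 14 of 16 were measured, and the median was -0.21. Of the 14, 12 were below 0 on each array and 0 were above, beside 26.3% and 14.3% of genes with a symbol. The summed intensity of the 14 was 45186 and 42824 in ASX RNA, against 50771 and 51640 in control RNA. Both summed ASX values lay below both control values, but bright genes rule such a sum. Penk, the brightest of the 14, alone had 13100 and 11940 in ASX RNA, against 17380 and 17790 in control RNA. The sum therefore does not describe the list as a whole. By the 1.5-fold rule 1 of the 14 was lower and 0 were higher, beside 0.0300% of genes with a symbol in each direction. Among the others, Ido1 had a mean of -0.57, Penk and Foxp2 -0.49 each and Drd2 -0.37, while Foxp1 had -0.10 and Pde1b -0.06. A second Drd2 probe had only -0.004 on array 1 and -0.107 on array 2, and a second Penk probe -0.45 and -0.48. Adora2a (0.10) and Pdyn (0.04) had means above 0, with opposite signs on the arrays. Gpr6 and Isl1 were not well above background for both RNAs. The part of striatal tissue in the receptor ratios was not tested.

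Of the meningeal fibroblast markers, 17 of 18 were measured, and the median was 0.15. Of the 17, 11 were above 0 on both arrays and 0 below, beside 14.3% and 26.3% of genes with a symbol. Their summed intensity was 36229 and 36955 in ASX RNA, against 36081 and 33242 in control RNA. Of this, Dcn alone had 15590 and 16640 in ASX RNA, against 17450 and 14800 in control RNA. The 17 means ran from -0.06 for Aebp1 to 0.28 for Bgn, with Slc6a13 at 0.24, Col1a1 at 0.23 and Col3a1 at 0.21. Dcn, the brightest of them, had 0.003 and Foxc1 0.02, and the mean of Aldh1a2 was 0.25. By the 1.5-fold rule 0 of the 17 were called. The part of meningeal tissue in the Aldh1a2 ratio was not tested. Choroid plexus, a source of transthyretin, the plasma partner of RBP4, was read beside Rbp4. Of its 14 markers 12 were measured and 0 called. Of the 12, 2 were above 0 on both arrays and 7 below, beside the same 14.3% and 26.3% of genes. The median of the 12 was -0.07, with Aqp1 at 0.20, Trpv4 at -0.27 and Calml4 at -0.31. Ttr, the transthyretin gene, had a mean of 0.10. Their summed intensity was 67132 and 66269 in ASX RNA, against 65395 and 69904 in control RNA. Hippocampal neuron markers had a median of 0.03, with Necab2 at -0.15 and Stxbp6 and Tdo2 at 0.13 each. The 12 endothelial and pericyte markers had a median of -0.03, with Pdgfrb at 0.23 and Cldn5 at -0.20. Cldn5 had opposite signs, with -0.55 on array 1 and 0.14 on array 2. The 10 astrocyte markers had a median of -0.03, with Slc1a2 at 0.22 and S100b at -0.12. S100b too had opposite signs, with -0.31 on array 1 and 0.07 on array 2.

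How the arrays were scaled set the zero of these ratios. With median centring of each array the median of all genes with a symbol was -0.16, and with scaling on 10 spike-in control probes it was -0.36. Rarb, Rxra, Rxrb and Rxrg were below 0 under each of the 10 other settings with both arrays, and below the median of all genes under each as well. These settings reprocess the same arrays and are not independent. The value table repeats the scanner's ratios. The filter and probe-choice settings cannot change the ratio of a gene with 1 probe, such as Rarb or Rxrg. Rxrg ran from -0.65 to -0.24, and relative to the median of all genes from -0.28 to -0.22. Aldh1a2 ran from -0.09, with spike-in scaling, to 0.26, and relative to all genes from 0.25 to 0.28. Aldh1a1 and Rbp4 were slightly above 0 except with median centring and spike-in scaling, where both were below. Crabp1 ran from -0.29 to -0.06 with both arrays, and its signs were opposite on the arrays under each.

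**Figure D5:**
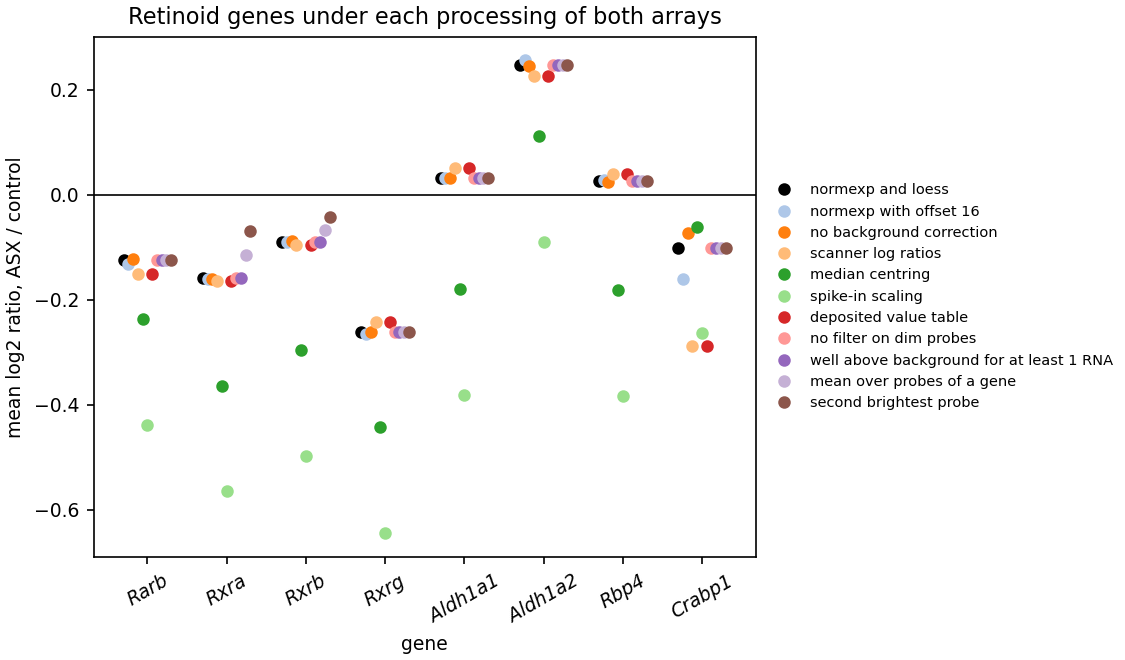
Mean log2 ratio of ASX over control (y axis) of the 8 measured genes (x axis) under the reported processing (black) and 10 other settings that use both arrays. The 4 receptor genes stay below 0 under all of them, while spike-in scaling lowers all genes and puts Aldh1a2 at -0.09.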

How the data were processed

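Hippocampal RNA of ASX and control mice was compared on 2 arrays. Per the submitters' processing notes, Agilent Feature Extraction 11.0.1.1 read the scans. The deposited intensities are pixel medians per spot and dye, with a local background, neither normalized. Per the file headers, processed intensities were background-subtracted and dye-normalized by that software. The deposited log10 ratio is processed Cy5 over Cy3, and its standard error and p-value come from the software's error model; the deposited p-value was not used. The deposited error score was turned to log2. The series' deposited value table holds the same log10 ratios, unturned, to within 5e-08.

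The R package limma 3.58.1 (R 4.3.3) corrected background by normexp with an offset of 50. Loess within each array followed, control spots (1639 of 45018 features) having weight 0. Control spots and 3 non-uniform outliers were left out, and 0 spots were saturated. Spots of 1 probe were averaged after every log2 ratio was turned to ASX over control. Intensities per dye were taken after Aquantile scaling between the arrays. The normalization was also run on a simulated dye swap with known ratios, and its outcome is not reported here. That run was scored only for spots with a log2 brightness above 8, so it does not cover dim genes such as Crabp1 and Rara. Of 41174 probes, 23374 matched 1 symbol through RefSeq (GRCm38.p6) and 17800 none. The array was designed on another build, so no coordinates are given beyond those of the promoter stretches shown, which are of GRCm38.p6. The 9 members, the comparison lists and the motif were chosen with earlier results of these data known. Named are all members and, from each list, the genes past the 1.5-fold rule or, where none passed, up to 4 measured genes with the largest absolute mean ratio. Values of 2 genes the rule takes are not reported here, and the other striatal genes named, like Ttr, Crabp2, Aebp1, Dcn and Foxc1, were picked after their values were seen. The number of arrays, 2, limits precision. Over genes with a symbol, the ratios of the arrays, each turned to ASX over control, had a Pearson correlation of -0.25. The median absolute part of the log2 ratio that follows the dye was 0.0776, larger than the 0.0555 of the mean ratio.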

Additional observations from a re-analysis of the deposited data

How the results depend on the processing

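No paired analysis was possible because the 2 arrays were treated as a technical dye swap and no result comes from a test. The counts of members at least 1.5-fold higher or lower stayed at 0 under all settings with both arrays, and at 0 with a 1.2-fold threshold. With 1 array alone each ran from 0 to 1, the 1 being Crabp1. Members above 0 on both arrays numbered 0 with median centring and 0 with spike-in scaling, and members below 0 numbered 7 with spike-in scaling. On single arrays 2 to 3 members were above 0. The median of the members was -0.11 with an offset of 16, -0.08 without background correction, -0.12 with the scanner's ratios or the deposited value table, -0.21 with median centring, -0.41 with spike-in scaling and -0.056 with the second brightest probe. On single arrays it ran from -0.09 to -0.071. Leaving out Crabp1, a choice made after seeing the data, gave -0.09.

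With median centring the list medians were -0.17 for RXR partners, -0.13 for other pathway genes, -0.23 for targets, 0.017 for meningeal and -0.36 for striatal markers. With spike-in scaling they were -0.375, -0.33, -0.43, -0.18 and -0.56 in that order. The scanner's ratios and the value table gave 0.16 for meningeal and -0.25 for striatal markers. Meningeal markers had 0.16 with an offset of 16 and 0.13 with second probes, and striatal markers -0.23 without a filter on dim probes and -0.24 with probes above background for at least 1 RNA. On single arrays RXR partners ran from -0.09 to -0.028, other pathway genes from -0.039 to 0.006, targets from -0.136 to -0.066, meningeal markers from 0.15 to 0.17 and striatal markers from -0.21 to -0.19. Median centring and spike-in scaling each subtract a single constant per array, so from the first to the second all genes of an array shift alike. The cause of the other shifts was not tested. The dim signals of Rara and Crabp1 limit what can be said of them.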
